A study of Mus musculus with 8 samples.

Results

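The regulators of cytokine mRNA decay are proteins that bind or cleave the 3′ untranslated regions (3′ UTRs) of short-lived inflammatory mRNAs. The 9 genes described here were taken by name from the gene count table: *Zc3h12a*, *Zfp36*, *Zfp36l1*, *Zfp36l2*, *Rc3h1*, *Rc3h2*, *Elavl1*, *Khsrp* and *N4bp1*. They are 9 of the 54658 genes in the table, and all 9 were expressed above the filter on low counts. The table held RNA-Seq of primary articular chondrocytes, which the study isolated with collagenase from femoral heads (the mice were wild type and aged 3 weeks). Of the 8 samples, 4 had been given interleukin-1β (IL-1β, 1 ng/mL) for 24 h and 4 had been given vehicle. IL-1β is an inflammatory cytokine used to bring isolated chondrocytes into a state that resembles osteoarthritic cartilage. The comparison asks how the mRNA levels of these 9 genes stood after a day of this stimulus. RNA-Seq does not measure the amount of their proteins or the activity of these in mRNA decay.

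Many cytokine and chemokine mRNAs carry AU-rich elements or small stem-loops in their 3′ UTRs. *Zfp36* encodes tristetraprolin (TTP), which with its relatives *Zfp36l1* and *Zfp36l2* binds AU-rich elements and recruits the CCR4-NOT complex, which removes the poly(A) tail. *Zc3h12a* encodes Regnase-1, an endoribonuclease that cuts mRNAs at stem-loops, and *Rc3h1* and *Rc3h2* encode roquin-1 and roquin-2, which bind stem-loops and also recruit CCR4-NOT. *Khsrp* encodes KSRP, a further decay factor for AU-rich mRNAs, while *Elavl1* encodes HuR, which binds AU-rich mRNAs and stabilises many of them. *N4bp1* encodes a protein with a ribonuclease domain related to that of Regnase-1 and is an inhibitor of NF-κB signalling.

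Most of the regulators' own mRNAs carry elements of the kind these proteins bind. The windows that follow are read 5′ to 3′ on the coding strand (GRCm38, GENCODE vM21), and show the AU-rich nonamer TTATTTATT of the 3 *Zfp36* family genes and 1 of those in *Elavl1*, with the nonamer in capitals and T written for U.
*Zfp36*, chr7:28376952-28376978, minus strand: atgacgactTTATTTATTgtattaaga
*Zfp36l1*, chr12:80108168-80108194, minus strand: actgttggaTTATTTATTttagaaatt
*Zfp36l2*, chr17:84184915-84184941, minus strand: ctatttaacTTATTTATTatcttgtga
*Elavl1*, chr8:4285781-4285807, minus strand: attatttatTTATTTATTtatttttat

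The roquin genes share a stem-loop core with known roquin targets. Capitals mark TTCTGTGAA, the core of the constitutive decay element, in which the bases on either side of a 3-base loop pair to form a stem; the element of *Tnf*, in which such a stem-loop is well known, and 1 of those in *Nfkbid* are shown for comparison.
*Rc3h1*, chr1:160971654-160971680, plus strand: gccaataacTTCTGTGAAgttgccttt
*Rc3h2*, chr2:37373803-37373829, minus strand: ttaattaacTTCTGTGAAgttgtttac
*Tnf*, chr17:35199579-35199605, minus strand: agacatgttTTCTGTGAAaacggagct
*Nfkbid*, chr7:30428396-30428422, plus strand: ctaggtgatTTCTGTGAAatcgagccc

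All 4 of these stem-loops had 6 Watson-Crick pairs. A second TTCTGTGAA in *Rc3h1*, at base 245 of the 3′ UTR, had 3 pairs. Of the 11806 tested genes with an annotated 3′ UTR, which were 82% of the genes tested, 2.57% held TTCTGTGAA and 0.178% (21 genes) held it with at least 6 pairs. The heptamer TATTTAT, which every nonamer contains, was found in 28.4% of these genes and the nonamer in 7.5%. Overlapping matches were counted separately and only the mRNA strand was read. *Zfp36*, *Zfp36l1*, *Zfp36l2* and *Rc3h2* each held 3 heptamers and 1 nonamer, and *Rc3h1* held 2 and 1. In *Elavl1*, 8 heptamers and 8 nonamers, most of them overlapping their neighbours, began between bases 3794 and 3841 of a 3′ UTR of 4218 bases. *Zc3h12a*, *Khsrp* and *N4bp1* held neither sequence in 3′ UTRs of 856, 1642 and 3548 bases. These are matches of letters and not measured binding sites. TTCTGTGAA was the only stem-loop core searched for, so other stem-loops were not covered.

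**Figure D1:**
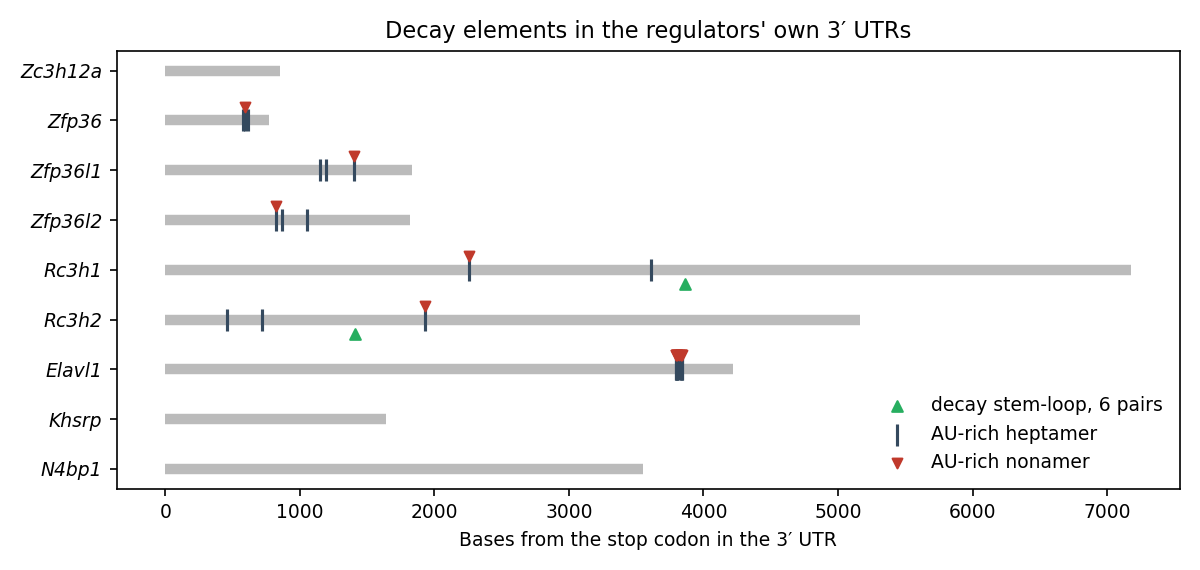
Position of AU-rich heptamers (dark bars), nonamers (red triangles) and decay stem-loops with 6 pairs (green triangles) along the 3′ UTR of each regulator (grey bar), in bases from the stop codon. The elements of *Elavl1* stand in 1 cluster near the end of its 3′ UTR, the 2 roquin genes each carry 1 stem-loop, and *Zc3h12a*, *Khsrp* and *N4bp1* carry none of these elements.

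The study from which the samples come concerns the microRNA miR-146a-5p, whose mature sequence in RefSeq (chr11:43374435-43374456, GRCm38, minus strand) is given with its seed, bases 2 to 8, in capitals.
mmu-miR-146a-5p: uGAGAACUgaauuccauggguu
The 7-base match to this seed, AGTTCTC, occurred 2 times in the 3′ UTR of *Elavl1*, 1 time in that of *N4bp1* and in none of the 3′ UTRs of the other 7 regulators. It was present in 11.2% of the tested genes with a 3′ UTR, a share not adjusted for length. The 3′ UTRs of *Elavl1* and *N4bp1* have 4218 and 3548 bases, beside a median of 1003 over those tested genes. These too are matches of letters only.

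Total counts ranged from 10992355 to 17104351 in the IL-1β samples and from 13970959 to 17456063 in the vehicle samples, so that 3 counts corresponded to 0.172 to 0.273 CPM (counts scaled to a common library total, as is usual in this field). Mitochondrial genes took 1.00% to 1.14% of the counts, and the single gene *Gm26917* took 13.8% to 14.6% in IL-1β samples and 13.2% to 13.9% in vehicle samples; the part of this in the results was not tested. All 10 chondrocyte markers were expressed above the filter, and their summed level went from between 14772 and 15352 CPM in vehicle to between 3716 and 4087 CPM with IL-1β. The summed macrophage markers were 16.5 to 19.5 CPM in IL-1β samples and 11.8 to 14.1 CPM in vehicle samples. Nearly all of this was *Cd68* and *Lyz2*, the only 2 of 11 that passed the filter, and these moved in opposite directions. *Cd68* was higher with IL-1β (log2 fold change 0.62 to 0.72 over the settings). *Lyz2* was lower (log2 fold change -0.60, edgeR adjusted p = 0.0364), a call lost in 7 of 14 alternative settings. The defining markers *Adgre1*, *Csf1r* and *Ptprc* had means under 1 CPM in both groups, and *C1qb* was at 0 in all samples. Endothelial markers summed to at most 0.785 CPM and neutrophil and lymphocyte markers to at most 0.451 CPM in any sample, with 5 of those 9 genes at 0. Fibroblast and osteoblast markers summed to 66.9 to 73.8 CPM in IL-1β samples and 113 to 123 CPM in vehicle samples. Of the 8 genes, 4 were tested, 1 higher and 3 lower. The fibroblast marker *Pdgfra* was higher (log2 fold change 0.56 to 0.60 over the settings). The osteoblast genes *Ibsp* (-3.85 to -3.62), *Bglap* (-1.69 to -1.56) and *Sp7* (-1.53 to -1.37) were lower. The part that these shifts in marker levels have in the changes of the regulators was not tested. In bulk RNA, fewer cells of a type and less RNA per cell cannot be told apart.

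IL-1β changed the decay regulators unequally. *Zc3h12a* rose about 20-fold and *Zfp36l1* about 2.6-fold, *Zfp36* fell, and the remaining 6 differed from vehicle by at most 14.7% in either direction. At an adjusted p under 0.05 (edgeR quasi-likelihood test, Benjamini-Hochberg over all 14404 genes tested), 4 of the 9 were higher with IL-1β (*Zc3h12a*, *Zfp36l1*, *Rc3h1* and *N4bp1*), against 20.4% of all genes tested. *Zfp36*, *Rc3h2* and *Elavl1* were lower, 3 of 9 against 19.8% of all genes. Differentially expressed genes (DEGs), defined by a change over 2-fold besides the adjusted p, included 2 of the 9, *Zc3h12a* and *Zfp36l1*, both among the higher DEGs that made up 2.86% of all genes; the lower DEGs, 2.35% of all genes, included no regulator by edgeR or by DESeq2. In 5 of the 9 the IL-1β and vehicle samples did not overlap, as in 36.8% of all genes tested. The median log2FC was 0.02 over the 9 regulators and -0.0012 over all genes, and the median absolute log2FC was 0.18 and 0.16. Nothing in the labels says that the 4 samples of a group were separate cultures or animals, so the p-values measure the spread between these samples.

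**Figure D2:**
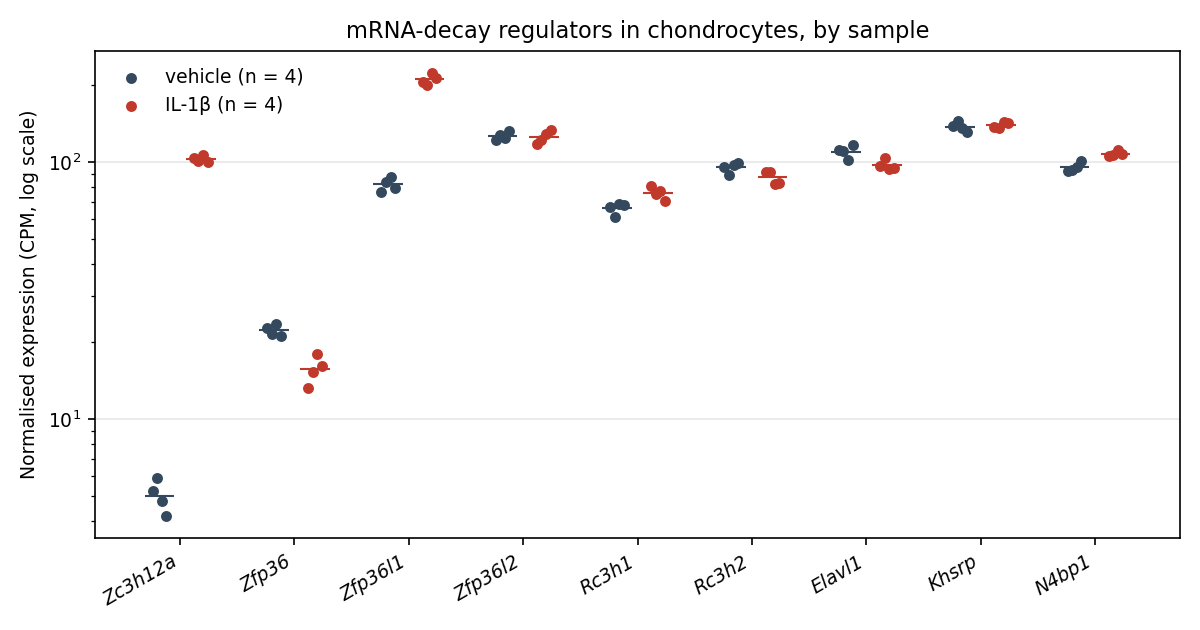
Normalised expression of the 9 regulators in each sample (CPM, log scale; dots, samples; horizontal lines, group means; n = 4 per group). The groups stand far apart for *Zc3h12a* (4.21 to 5.89 CPM in vehicle samples and 100.1 to 106 CPM in IL-1β samples) and for *Zfp36l1*, and lie on each other for *Zfp36l2* and *Khsrp*.

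**Figure D3:**
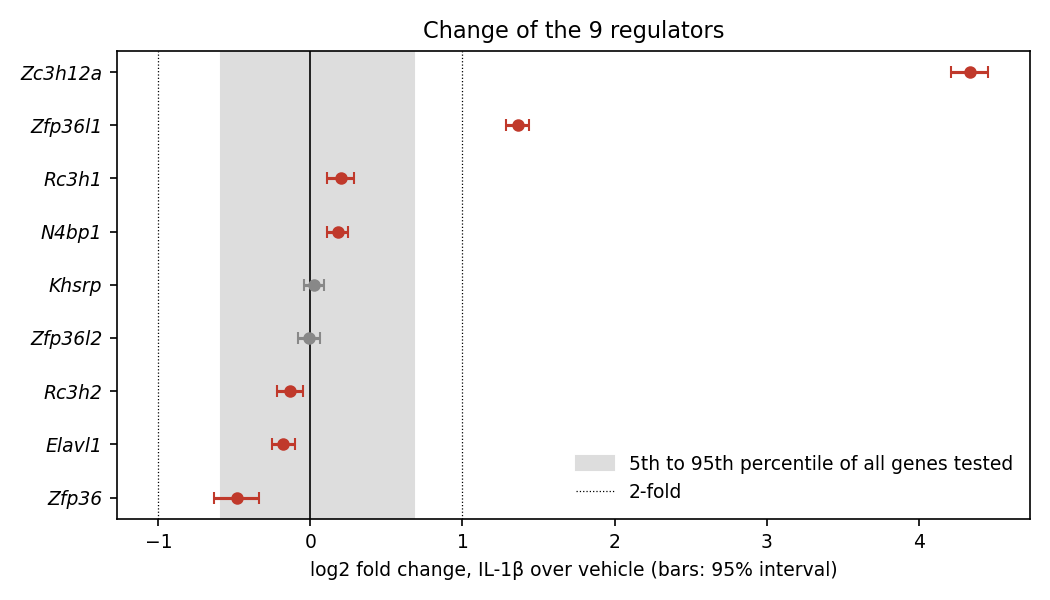
log2FC of each regulator, IL-1β over vehicle, with the 95% interval from its standard error; red points passed the adjusted p and grey points did not. The grey band spans the 5th to 95th percentile of all genes tested, -0.59 to 0.68, and only *Zc3h12a* (4.34) and *Zfp36l1* (1.36) lie outside it.

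*Zc3h12a* (chr4:125118423-125127840, minus strand, 6 exons), the gene of Regnase-1, was counted 91, 102, 67 and 64 times in the 4 vehicle samples and 1149, 1394, 1786 and 1411 times in the 4 IL-1β samples. Every IL-1β sample was far above every vehicle sample, although the IL-1β libraries were on the whole the smaller ones. In normalised terms the level was 5.03 ± 0.715 CPM in the vehicle group and 103 ± 2.81 CPM in the IL-1β group (mean ± SD, n = 4), a log2FC of 4.34 (SE 0.0621, 95% interval 4.22 to 4.46, adjusted p = 5.04e-29) or 20.2-fold. This was the 24th largest rise of the 14404 genes tested. Its estimated variation between replicates was small, a biological coefficient of variation of 2.89% beside a median of 4.69% over all genes.

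The genes whose profile over the 8 samples was nearest to that of *Zc3h12a* (Euclidean distance of mean-centred log2(CPM + 1) values) were *Cxcl3*, *C3* and *Lbp*, at distances of 0.346, 0.397 and 0.50. *Cxcl3*, a neutrophil-attracting chemokine, went from 0.529 ± 0.0755 to 22.8 ± 2.28 CPM. *C3*, the central component of complement, went from 24.3 ± 1.33 to 450 ± 4.13 CPM, and *Lbp*, the lipopolysaccharide-binding protein, from 6.22 ± 0.551 to 152 ± 8.63 CPM. Their fitted log2FC were 5.41, 4.21 and 4.61; on the log2(CPM + 1) scale the step of *Cxcl3*, which was under 1 CPM with vehicle, is smaller than its log2FC, which brings it near to *Zc3h12a*.

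The upstream region of *Zc3h12a* is shown because its change was the largest, with those of *Zfp36l1* and *Zfp36*, the regulators with the next largest changes. Each is the 250 bases before the RefSeq start site (GRCm38.p6), 5′ to 3′ towards the gene. Capitals mark matches, on either strand, to GGGCGG (the GC box, written CCGCCC on the other strand), the TATA box TATAAA, the CCAAT box, the AP-1 site TGAGTCA, the cyclic AMP element TGACGTCA, the NF-κB consensus or the serum response element.
*Zc3h12a*, chr4:125127882-125128131, minus strand: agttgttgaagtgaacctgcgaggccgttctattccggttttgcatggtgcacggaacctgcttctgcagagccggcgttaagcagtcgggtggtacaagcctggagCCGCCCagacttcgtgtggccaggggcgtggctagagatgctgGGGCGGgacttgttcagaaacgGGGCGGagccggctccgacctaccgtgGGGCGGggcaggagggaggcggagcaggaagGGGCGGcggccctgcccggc
*Zfp36l1*, chr12:80113014-80113263, minus strand: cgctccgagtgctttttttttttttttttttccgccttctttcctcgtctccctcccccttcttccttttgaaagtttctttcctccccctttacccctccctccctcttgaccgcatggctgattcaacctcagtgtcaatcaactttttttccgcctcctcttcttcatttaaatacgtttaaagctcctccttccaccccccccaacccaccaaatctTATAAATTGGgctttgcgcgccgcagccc
*Zfp36*, chr7:28379229-28379478, minus strand: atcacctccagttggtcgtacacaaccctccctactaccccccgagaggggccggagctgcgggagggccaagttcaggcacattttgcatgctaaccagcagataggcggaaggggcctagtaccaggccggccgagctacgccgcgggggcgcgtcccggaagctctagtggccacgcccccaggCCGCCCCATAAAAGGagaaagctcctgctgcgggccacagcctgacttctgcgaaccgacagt

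*Zc3h12a* held 5 GC boxes, which 35.7% of 32851 mouse promoter windows of 300 bases hold at least once. *Zfp36l1* held TATAAA 29 bases before the start site, found in 13.6% of windows, overlapping by 1 base a CCAAT read on the other strand, found in 37.4%. *Zfp36* held a serum response element 58 bases before the RefSeq start site, found in 1.63% of windows, overlapping a GC box by 1 base. The *Zfp36* stretch lies inside the gene as GENCODE places it (chr7:28376784-28380253). All 3470 bases of that span count as exon there. The letters of the NF-κB consensus, found in 4.51% of windows, were not in the windows of the 8 regulators with a RefSeq entry (all but *Zfp36l2*), which says only that they are not in these stretches. TGAGTCA, found in 5.2% of windows, occurred in that of *Rc3h1*, 133 bases before the start site.

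The 3 genes of the *Zfp36* family differed in their response: 1 rose, 1 fell and 1 did not pass the test. *Zfp36l1* (chr12:80107754-80113013, minus strand, 3 exons) was counted 1330, 1447, 1229 and 1204 times in vehicle samples and 2273, 2765, 3744 and 2995 times in IL-1β samples, with no overlap. It rose from 81.8 ± 4.84 to 210 ± 9.96 CPM, a log2FC of 1.36 (SE 0.0388, adjusted p = 7.41e-22) or 2.57-fold, and ranked 253rd among all genes by the size of its rise. Of its 2990 exon bases, 1672 lie opposite those of *Gm26669*, which was counted at most 30 times in any sample, while *Zfp36l1-ps*, a pseudogene, was counted 11 to 32 times. Whether the counting used strand is not given in the sources used here.

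*Zfp36*, the gene of tristetraprolin (chr7:28376784-28380253, minus strand, 2 exons), was counted 393, 371, 327 and 319 times in vehicle samples and 147, 211, 300 and 227 times in IL-1β samples. All 4 IL-1β samples were lower. Its level fell from 22.1 ± 1.09 to 15.6 ± 1.90 CPM, a log2FC of -0.49 (SE 0.0761, adjusted p = 5.70e-06), a drop to 0.714 of the vehicle level. Among the IL-1β samples the level was lowest, 13.2 CPM, in the library with the fewest counts and highest, 17.8 CPM, in that with the most; the part of library size in this was not tested.

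*Zfp36l2* (chr17:84183931-84187947, minus strand, 2 exons) was counted 2105, 2216, 1737 and 2004 times in vehicle samples and 1302, 1683, 2165 and 1881 times in IL-1β samples. Scaled to library size, the groups overlapped, at 126 ± 4.54 and 125 ± 7.20 CPM. The log2FC was -0.01 with a 95% interval of -0.08 to 0.06 (adjusted p = 0.871).

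Ratios within a library do not depend on scaling between libraries, and 6 of them were compared between the groups (exact two-sided permutation test, 4 against 4; the smallest p this design allows is 0.0286). *Zfp36l1* counts were 0.601 to 0.708 of the *Zfp36l2* counts in vehicle samples and 1.59 to 1.745 times them in IL-1β samples. That ratio rose by 1.37 on the log2 scale (exact permutation p = 0.0286, adjusted over the 6 ratios 0.0343). *Zfp36* counts went from 0.257 to 0.296 of those of *Zfp36l1* down to 0.0649 to 0.0802, a drop of the ratio by 3.65-fold (the same exact p), and the ratio of *Zfp36* to *Zfp36l2* fell by 0.49 on the log2 scale (the same exact p).

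Per exon length, *Zfp36l1* made up 39.3% ± 1.46 of the family's transcripts with vehicle and 63.7% ± 1.01 with IL-1β (share of the summed TPM, transcripts scaled to a common total per library, n = 4). *Zfp36l2* went from 51.5% ± 1.68 to 32.2% ± 0.913 and *Zfp36* from 9.17% ± 0.551 to 4.07% ± 0.338. The summed level of the 3 genes was 194 ± 6.41 TPM with vehicle and 298 ± 7.21 TPM with IL-1β, and the ranges of the samples did not overlap.

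**Figure D4:**
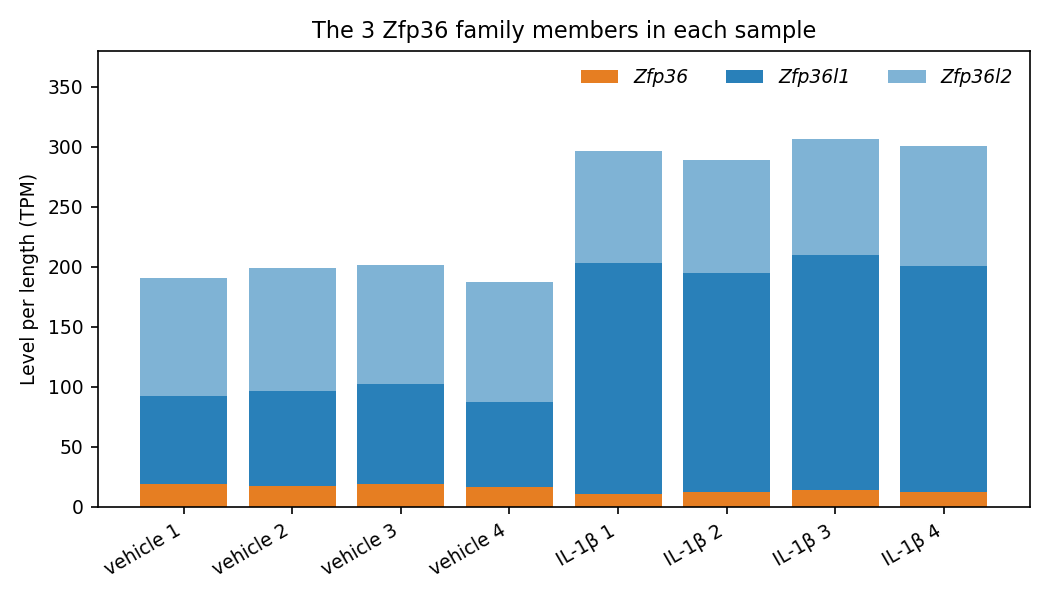
Level per length (TPM) of *Zfp36*, *Zfp36l1* and *Zfp36l2* in each of the 8 samples, stacked. The sum is 188 to 201 TPM in vehicle samples and 289 to 306 TPM in IL-1β samples, and the added height is that of *Zfp36l1*.

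The roquin genes moved little and in opposite directions. *Rc3h1* (chr1:160906418-160974978, plus strand, 20 exons) was at 66.6, 60.8, 68.8 and 68.2 CPM in vehicle samples and at 80.5, 75.3, 77.0 and 70.5 CPM in IL-1β samples, without overlap. Its log2FC was 0.20 (SE 0.0452, adjusted p = 7.38e-04), a rise of 14.7%. *Rc3h2* (chr2:37370069-37422903, minus strand, 22 exons) was at 95.8, 89.0, 97.6 and 99.3 CPM in vehicle samples and at 91.8, 91.5, 82.4 and 82.6 CPM in IL-1β samples, where the first 2 lay above the lowest vehicle sample. Its log2FC was -0.13 (SE 0.0426, adjusted p = 0.0127), and the adjusted p was 0.0724 without IL-1β replicate 3 and 0.0599 without IL-1β replicate 4, so that the call rested on each of these samples. The ratio of *Rc3h1* to *Rc3h2* counts was 0.684 to 0.705 in vehicle samples and 0.823 to 0.934 in IL-1β samples, higher by 0.33 on the log2 scale (exact permutation p = 0.0286, adjusted over the 6 ratios 0.0343).

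*N4bp1* (chr8:86808160-86885258, minus strand, 7 exons) was at 92.0, 93.5, 95.5 and 101 CPM in vehicle samples and at 106, 107, 112 and 107 CPM in IL-1β samples. The groups did not overlap, and the log2FC was 0.18 (SE 0.0360, adjusted p = 1.80e-04). Regnase-1 and N4BP1 both carry a ribonuclease domain, and the ratio of their counts went from between 0.0420 and 0.0633 in vehicle samples to between 0.933 and 0.978 in IL-1β samples, a change of 4.17 on the log2 scale (exact permutation p = 0.0286).

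The last pair are AU-rich binding proteins with opposite roles. *Elavl1*, the gene of the stabiliser HuR (chr8:4285382-4325413, minus strand, 6 exons), was at 111, 110, 102 and 116 CPM in vehicle samples and at 96.8, 104, 93.6 and 94.96 CPM in IL-1β samples. IL-1β replicate 2 lay above the lowest vehicle sample. It fell by 0.18 on the log2 scale (SE 0.0397, adjusted p = 5.91e-04). *Khsrp*, the gene of the decay factor KSRP (chr17:57021051-57031522, minus strand, 19 exons), was at 137 ± 5.79 CPM in the vehicle group and 139 ± 3.73 CPM in the IL-1β group, a log2FC of 0.02 with a 95% interval of -0.04 to 0.09 (adjusted p = 0.650). The ratio of *Elavl1* to *Khsrp* differed by -0.20 on the log2 scale (exact permutation p = 0.0857) and its groups overlapped. *Ccl25*, whose exons share 204 bases with those of *Elavl1* on the other strand, was at 9.34 to 12.4 CPM in all samples.

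Taken per exon length, the order of the 9 genes changed at its ends. With vehicle, *Zfp36l2* (98.4 to 102 TPM), *Khsrp* (88.9 ± 5.61 TPM) and *Zfp36l1* (76.6 ± 5.32 TPM) stood at the top and *Zc3h12a* (4.90 ± 0.785 TPM) at the bottom; *Elavl1* (29.7 TPM), *N4bp1* (21.9 TPM), *Zfp36* (17.8 TPM), *Rc3h1* (16.4 TPM) and *Rc3h2* (13.6 TPM) lay between. With IL-1β, *Zfp36l1* was highest (190 ± 5.84 TPM), and *Zc3h12a* (96.4 ± 3.71 TPM) and *Zfp36l2* (96.0 ± 3.00 TPM) followed with overlapping ranges, ahead of *Khsrp* (87.3 ± 1.41 TPM). In vehicle samples the neighbours *Khsrp* and *Zfp36l1*, and *Zfp36* and *Rc3h1*, overlapped, and in IL-1β samples *Elavl1* and *N4bp1*, and *Zfp36* and *Rc3h2*. The lower places depend on the length used. The deposited length of *Rc3h2* is 19624 bases and its mRNA with the longest coding sequence 8799, and with such mRNA lengths *Rc3h2* stood above *Rc3h1*, at 30.3 against 16.8 TPM with vehicle and 26.9 against 18.7 TPM with IL-1β. *Zfp36*, whose deposited length of 3470 bases covers its intron, rose to 22.2 and 15.1 TPM by that measure.

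The relatives of Regnase-1 were at low to moderate levels. In the list of genes with a related PIN or NYN domain, 1 of the 4 tested was higher, *Zc3h12c*, from 17.97 ± 0.8285 to 23.5 ± 2.55 CPM (log2FC 0.38, adjusted p = 7.51e-05), and 3 did not pass. Over all genes tested, 20.4% were higher. *Zc3h12b*, a close relative, was at 7.28 ± 0.994 and 8.75 ± 0.531 CPM (adjusted p = 0.0505), *Zc3h12d* had at most 6 counts in a sample, and *Zfp36l3*, a further *Zfp36* relative, was at 0 in all 8 samples, which allows up to 0.273 CPM in the smallest library.

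The general decay machinery that these regulators recruit was described from fixed lists, in which most changes were under 2-fold. Among 19 genes of the CCR4-NOT and PAN deadenylases and their partners, 3 were higher, 3 lower and 13 did not pass, with a median log2FC of 0.0050. Neither count exceeded the share over all genes tested, 20.4% higher and 19.8% lower. *Pabpc1*, the main cytoplasmic poly(A)-binding protein, rose from 1500 ± 49.7 to 2249 ± 109 CPM (log2FC 0.58, adjusted p = 3.25e-15). The antiproliferative genes *Btg1* and *Btg2*, whose products bind the deadenylase, moved apart, *Btg1* by a log2FC of 0.36 and *Btg2* by -0.36 (adjusted p = 1.98e-10 and 4.95e-11). *Cnot6*, a catalytic deadenylase, fell from 85.2 ± 2.89 to 66.3 ± 2.50 CPM (adjusted p = 1.32e-08).

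In the decapping list, 3 of 21 genes were higher, 2 lower and 16 did not pass. Both counts were below the shares over all genes tested, 20.4% higher and 19.8% lower. Those shares also stand beside the other list counts of this paragraph. *Pnrc1*, a nuclear receptor coactivator related to the decapping cofactor *Pnrc2*, rose from 116 ± 2.92 to 264 ± 3.07 CPM (log2FC 1.19, adjusted p = 6.70e-23) and was the only DEG of that list; *Lsm14b*, a component of RNA granules, rose by 0.57 on the log2 scale. *Dcp2*, the decapping enzyme, fell from 41.9 ± 0.723 to 36.4 ± 1.43 CPM (log2FC -0.20, adjusted p = 7.20e-04). Of 16 tested exosome and SKI genes, 4 were higher and 6 lower, all within 2-fold. *Dis3*, the catalytic subunit, had a log2FC of -0.29 and *Ttc37*, a SKI scaffold, of -0.26. *Dis3l2*, an exonuclease that works apart from the exosome, and *Skiv2l*, the SKI helicase, each had one of 0.25. The calls on *Exosc5*, *Exosc8* and *Exosc3* were lost in 6, 5 and 4 of 15 alternative settings. Those on *Exosc10* and *Exosc4* were lost in 2 and 1. In nonsense-mediated decay 1 of 10 was lower, *Upf1*, the helicase that Regnase-1 uses as a cofactor, from 170 ± 2.73 to 143 ± 2.26 CPM, and 1 was higher, *Smg9* (log2FC 0.13, adjusted p = 0.0335). The call on *Smg9* was lost with DESeq2 (adjusted p = 0.113), without the filter (0.115), with a replicate block (0.0511) and in 5 of the 8 fits with a sample left out (0.0570 and 0.106 without IL-1β replicates 3 and 4, and 0.0729, 0.0728 and 0.0719 without vehicle replicates 2, 3 and 4).

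Of 23 tested genes for other proteins that bind AU-rich, GU-rich or further UTR elements, 2 were higher, 10 lower and 11 did not pass (median log2FC -0.07). The shares over all genes tested were 20.4% higher and 19.8% lower. Among the higher genes the call on *Celf2* was lost in 6 of 15 alternative settings. Among the lower genes those on *Pcbp2*, *Fubp1*, *Pcbp1* and *Samd4* were lost in 8, 3, 2 and 1. *Cpeb4*, which binds cytoplasmic polyadenylation elements, went from 62.6 ± 1.77 to 48.0 ± 2.21 CPM (log2FC -0.38, adjusted p = 1.68e-08) and *Tia1*, a translational repressor of AU-rich mRNAs, had a log2FC of -0.22. The neuronal HuR relatives *Elavl2*, *Elavl3* and *Elavl4* had means under 1 CPM and were not tested.

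Of 28 tested genes for enzymes and partner proteins that act on the regulators' proteins, 10 were higher and 3 lower. Of all genes tested, 20.4% were higher and 19.8% lower. Over the alternative settings the list had 7 to 11 higher and 2 to 4 lower genes. The call on *Ppp2cb*, 1 of the lower genes, was lost in 9 of 15 settings. Those on *Mapk12* and *Ppp2ca*, among the higher genes, were lost in 5 and 2. The 2 largest rises were those of *Ikbke*, an IKK-related kinase, from 6.67 ± 0.687 to 32.8 ± 2.15 CPM (log2FC 2.29, adjusted p = 1.09e-19), and *Mapk13*, the p38δ kinase, from 5.64 ± 0.478 to 23.0 ± 2.03 CPM (log2FC 2.02, adjusted p = 5.89e-17). *Malt1*, the protease that cleaves Regnase-1, roquins and N4BP1, had a log2FC of 0.31 with overlapping groups (adjusted p = 0.0310), a call lost without IL-1β replicate 1 or 2 (adjusted p = 0.165 and 0.0530) or vehicle replicate 2 or 3 (0.0722 and 0.0824). *Chuk*, the kinase IKKα, and *Ywhaq*, a 14-3-3 protein, fell by 0.23 and 0.19 on the log2 scale, and *Mapkapk2*, the kinase MK2 that phosphorylates tristetraprolin, was at 119 ± 0.616 and 121 ± 4.99 CPM (adjusted p = 0.599).

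Known target mRNAs of these regulators were measured in the same cells. Of 18 Regnase-1 and roquin targets, 9 passed the filter and 7 of these were higher; *Cxcl3*, under 1 CPM in every vehicle sample, passed it only through the IL-1β group. Of the 7 targets above 1 CPM in all 8 samples, 6 were higher, and the median log2FC was 2.63 over either set. Over all genes tested, 20.4% were higher and 19.8% lower, with a median log2FC of -0.0012. *Ptgs2*, the inducible cyclooxygenase, at 385 ± 9.27 and 367 ± 8.11 CPM, and *Tnfrsf4* did not pass the test. The largest rises were those of the chemokines *Cxcl3* (log2FC 5.41, SE 0.150, adjusted p = 3.99e-22) and *Cxcl1*, from 12.1 ± 0.661 to 436 ± 16.0 CPM (log2FC 5.17, adjusted p = 3.98e-34). *Nfkbiz*, a nuclear IκB protein that Regnase-1 represses, went from 44.3 ± 2.06 to 275 ± 8.43 CPM (log2FC 2.63). *Il6*, the classic Regnase-1 target, was counted 17, 14, 17 and 26 times in IL-1β samples and 0 times in all 4 vehicle samples, below the filter; the groups did not overlap (exact permutation p = 0.0286), and with no filter it was higher at an adjusted p of 6.26e-20 (edgeR). *Tnf* had at most 2 counts in any sample, which is too few for a comparison.

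Targets of the tristetraprolin family were split. Of 23, 14 passed the filter; 8 were higher, 3 lower and 3 did not pass the test (median log2FC 0.57). Without *Ccl2*, which was under 1 CPM with vehicle, 7 of 13 were higher and 3 lower (median 0.52). The shares over all genes tested were 20.4% higher and 19.8% lower. Several genes, *Cxcl1* and *Il6* among them, stand in both target lists. *Nos2*, the inducible nitric oxide synthase, rose from 1.57 ± 0.259 to 67.2 ± 4.51 CPM (log2FC 5.40, adjusted p = 1.54e-27). *Fos*, an immediate early transcription factor, fell from 24.7 ± 0.733 to 10.8 ± 0.659 CPM (log2FC -1.19, adjusted p = 3.52e-14) and *Myc* by 0.14 on the log2 scale, with no overlap for either. The 3′ UTR of *Cxcl1* held 6 heptamers and 2 nonamers, and that of *Fos* 2 and 1.

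*Zfp36* is itself an immediate early gene, induced within the first hour of many stimuli, and its level at 24 h was set beside others of that class. Of 17 tested, 5 were higher, 9 lower and 3 did not pass, with a median log2FC of -0.24. Of the 14 above 1 CPM in all samples, 5 were higher and 7 lower (median -0.11). Among all genes tested, 20.4% were higher and 19.8% lower. *Fos* and *Atf3*, a stress-induced transcription factor (61.9 ± 2.44 to 33.1 ± 1.74 CPM, log2FC -0.91, adjusted p = 9.06e-16), had the largest falls among those at 5 CPM or more without overlap, beside -0.49 for *Zfp36*. *Ier3*, an NF-κB-induced survival gene, rose from 48.4 ± 2.64 to 187 ± 4.65 CPM (log2FC 1.95, adjusted p = 6.66e-26) and *Nr4a1*, a nuclear receptor, from 2.62 ± 0.298 to 5.22 ± 0.981 CPM (log2FC 1.00, adjusted p = 6.66e-06).

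**Figure D5:**
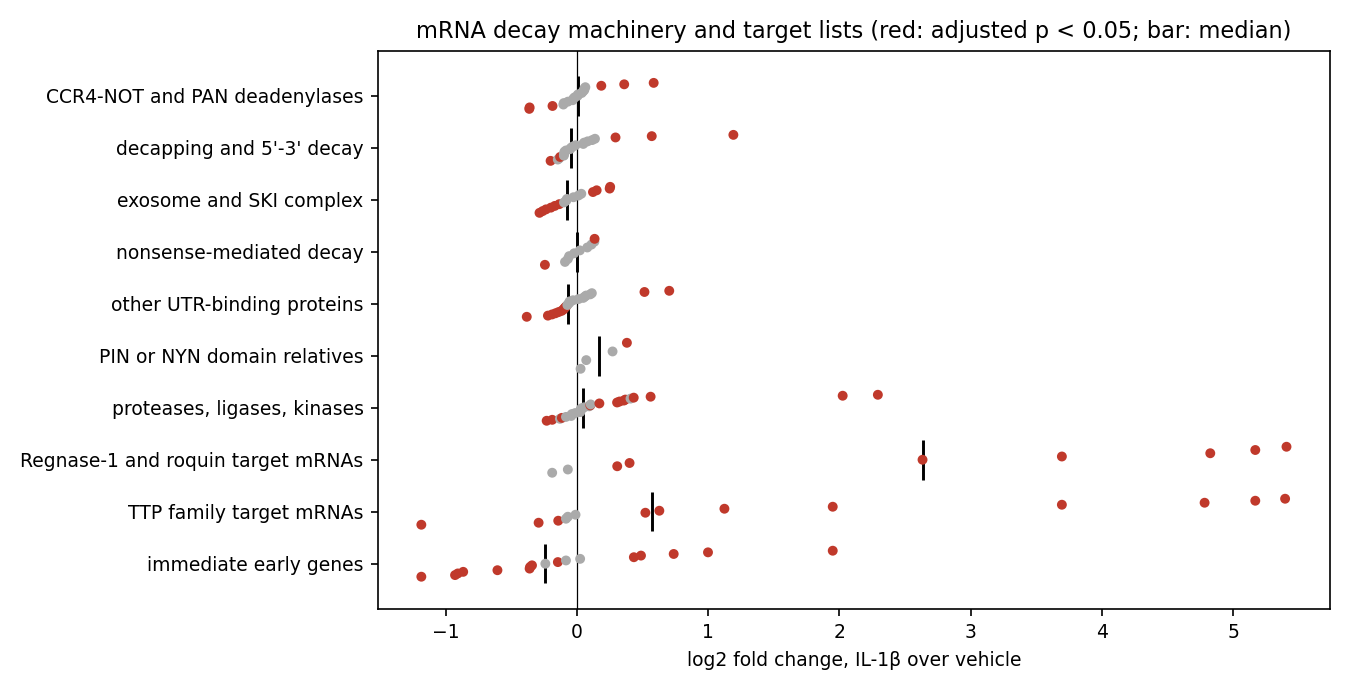
log2FC, IL-1β over vehicle, of every tested gene in 10 lists (points; red, adjusted p under 0.05) with the median of each list (bar). In the 4 lists of decay machinery *Pnrc1* (1.19) lies farthest from 0, and the target lists reach 5.41.

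Across all tested genes the heptamer was set beside the response. Genes higher with IL-1β held one in 27.1%, genes lower in 34.4% and genes not called in 26.6%; their median 3′ UTR lengths were 1102, 1171 and 914 bases, and heptamers per 1000 bases were 0.254, 0.326 and 0.293. The median log2FC was 0.01 for genes without a heptamer, -0.01 with 1, -0.05 with 2 and -0.04 with 3 or more, and 3′ UTR length rose along this order, from a median of 725 to 3265 bases. No test was made of this description.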

How the data were processed

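RNA-Seq of primary murine articular chondrocytes was analysed, 4 samples with IL-1β and 4 with vehicle, grouped by their labels. Per the methods, cutadapt was used for trimming, STAR for alignment (mm10, GENCODE vM20) and featureCounts for counting. The deposited values are whole-number counts per gene symbol, and the authors deposited gene lengths in bases (unit: other) beside them. The methods name a batch correction with RUVseq and the sources used here do not say whether the counts precede it. The submitters' processing notes name STAR 2.4.2a, whereas the methods give a different STAR version. All count columns were used.

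Counts were scaled by TMM and tested by edgeR 4.0.16 (quasi-likelihood, treatment as the only term; R 4.3.3, limma 3.58.1) over the 14404 genes with CPM above 1 in at least 4 samples; DESeq2 1.42.0 was an alternative. On simulated data with known changes the test steps were checked. TPM used the deposited lengths. Ratios had 0.5 added to each count and single values were compared by exact permutation of log2(CPM + 1). The 95% intervals are log2FC plus or minus the normal quantile times its SE. Positions and 3′ UTRs (of the mRNA with the longest coding sequence) are from GENCODE vM21, of the same assembly; of the gene symbols, 54000 matched 1 gene and 53178 had the deposited length. Promoters and the miRNA are from RefSeq (GRCm38.p6).

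Members and gene lists were chosen with earlier results of these data known. Named genes were the 9 members and, per list, the 2 largest rises and 2 largest falls that passed the test, did not overlap and averaged at least 5 CPM in the higher group; others were chosen for their known role after their values were seen. Total counts from 10992355 to 17456063 bound the precision, and the floors given cover counting error only. Replicate numbers did not pair the samples. Alternatives were other scalings, filters and tools, RUVs with 1 factor, a replicate block, each sample left out, other pseudocounts and another gene length.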

Additional observations from a re-analysis of the deposited data

Results flagged for a closer look

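Among the 9 regulators, the named genes of the lists and the total counts, 76 groups of 4 samples were searched for a sample far from the other 3, and 1 was found, where about 3.8 would be flagged by chance (1 in 20). *Nos2* was at 73.9 CPM in IL-1β replicate 1 and at 64.4 to 65.6 CPM in its 3 fellow samples, against 1.31 to 1.91 CPM with vehicle. None of the 9 regulators had such a sample in either group.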

How the results depend on the processing

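Over 15 alternative settings, 129 of 135 recomputed log2FC of the 9 regulators kept their direction and side of the threshold. The exceptions were *Rc3h2*, past the threshold in all but 2 settings (-0.10 without IL-1β replicate 3 and -0.11 without IL-1β replicate 4; -0.17 to -0.10 over the samples left out), *Zfp36l2*, at -0.0385 to 0.02 over the samples left out (0.02, 0.0077 and 0.0096 without IL-1β replicate 1, IL-1β replicate 2 and vehicle replicate 4), and *Khsrp*, at -0.0019 to 0.0474 (the lowest without vehicle replicate 4). The number of regulators past the adjusted p was 6 to 7 over the samples left out, and 2 were DEGs in every setting, also when tested against a 2-fold change. *Zc3h12a* ranged from 4.26 to 4.42, *Zfp36l1* from 1.33 to 1.39 and *Zfp36* from -0.56 to -0.42. The 6 ratios kept their direction and side of the threshold with pseudocounts of 0 and 1; with a sample left out they were values without a test, all in the same direction.

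Same-numbered samples did not deviate together (correlations of -0.07 to 0.04, and 1 of 4 IL-1β samples correlated best with its own number). With a replicate block, 7 regulators passed and 2 were DEGs; their log2FC were 4.34 (*Zc3h12a*), -0.50 (*Zfp36*), 1.36 (*Zfp36l1*), -0.01 (*Zfp36l2*), 0.20 (*Rc3h1*), -0.13 (*Rc3h2*), -0.17 (*Elavl1*), 0.02 (*Khsrp*) and 0.18 (*N4bp1*). Paired ratios cannot reach an exact p below 0.125.

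Of 300 recomputed list counts, 274 were within 1.5 times. Higher genes of nonsense-mediated decay were 0 with DESeq2, without the filter and with the replicate block, and 0 to 1 over the samples left out. Without the filter 11 Regnase-1 and roquin targets were higher, the added 4 being *Il6*, *Il12b*, *Nfkbid* and *Icos*. Of these, *Nfkbid* and *Icos* had at most 19 and 21 counts in a sample and their groups overlapped (exact permutation p = 0.0857). *Il12b* had at most 5 counts and *Il6* at most 26, without overlap. With CPM above 1 in all samples 6 targets were higher. The PIN or NYN relatives had 2 higher genes with CPM above 1 in all samples and with RUVs, where lower genes were 2 in nonsense-mediated decay, 1 among the Regnase-1 and roquin targets and 5 among those of the tristetraprolin family. Over the samples left out, higher genes were 1 to 2 among the PIN or NYN relatives, 1 to 3 among other UTR-binding proteins and 2 to 4 in the exosome list; lower genes were 2 to 4 in decapping, 1 to 2 in nonsense-mediated decay and 0 to 1 among Regnase-1 and roquin targets. The causes were not tested.

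By CPM without length, 2 of 9 regulators kept their rank in either group; with mRNA lengths, chosen after seeing the data, 6 did, and 7 to 9 with IL-1β and 9 with vehicle over the samples left out. Genes with at most 2 counts in any sample, such as *Tnf*, cannot be compared at this depth.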
